A study of Mus musculus with 8 samples.

Results

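The replication-dependent histone genes were examined by RNA-Seq in mouse articular chondrocytes in primary culture, with and without IL-1β. The genes were chosen by name, as rows of the count table named *Hist1h* to *Hist4h* with 10 or more counts summed over the 8 samples. This gave 60 genes of 54658 rows: 5 of the linker histone type H1, 16 of type H2A, 16 of type H2B, 10 of type H3 and 13 of type H4. The other 10 rows with such a name had 0 to 9 counts. Both groups held chondrocytes digested from femoral heads (wild-type mice, 3 weeks of age) and kept in high-glucose medium with 10% serum, 4 samples treated with 1 ng/mL IL-1β for 24 h and 4 samples treated with vehicle for the same time. IL-1β is a cytokine that provokes matrix breakdown in chondrocytes, and the comparison asked how it changes their transcripts. The sources used here do not say whether the samples of a group came from separate animals or cultures, so the p-values measure only the spread between these samples.

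Histones package DNA. H2A, H2B, H3 and H4 form the core of the nucleosome, H2A pairing with H2B and H3 with H4, and H1 binds the linker DNA between nucleosomes. The genes of the clusters are known for being transcribed together as cells copy their DNA. Their mRNAs end in a conserved stem-loop in place of a poly(A) tail, the stem-loop is bound by the protein Slbp, and the mRNAs are degraded when DNA synthesis stops. Articular chondrocytes divide rarely in the joint and more in culture.

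The stem-loop was searched for after the stop codon of the GENCODE vM21 transcripts (GRCm38), as 2 arms of 6 bases, GGNNCT and AGNNCC, that pair with each other around a loop of any 4 bases. It was found in 41 of the 60 genes, at 21 to 54 bases after the stop codon, and in 0.601% of 21810 other protein-coding genes. By type it was found in 3 of 5 H1, 9 of 16 H2A, 9 of 16 H2B, 8 of 10 H3 and 12 of 13 H4 genes. Of the 19 genes without it, 15 have 60 or fewer bases annotated after the stop codon, so the window may end before it. The stem-loops of 8 genes named in the results are shown with 6 bases on each side, the arms and loop in capitals, 5′ to 3′ on the strand of the gene, because the arms differ between the H4 genes and all others.
*Hist1h4h*, chr13:23531452-23531479, plus strand: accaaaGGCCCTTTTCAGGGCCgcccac
*Hist1h4c*, chr13:23698083-23698110, minus strand: acaaaaGGCCCTTTTCAGGGCCacccac
*Hist1h4a*, chr13:23760794-23760821, minus strand: accaaaGGCCCTTCTCAGGGCCgcccac
*Hist2h4*, chr3:96262933-96262960, minus strand: cctaacGGCCCTTTTTAGGGCCaaccac
*Hist1h1c*, chr13:23739506-23739533, plus strand: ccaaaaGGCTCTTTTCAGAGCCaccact
*Hist2h2ac*, chr3:96220412-96220439, minus strand: caaaaaGGCTCTTTTTAGAGCCaccaaa
*Hist1h2bf*, chr13:23573759-23573786, minus strand: cccaaaGGCTCTTTTCAGAGCCacctac
*Hist1h3f*, chr13:23544926-23544953, plus strand: caaaacGGCTCTTTTAAGAGCCacctcc
The arms were GGCTCT and AGAGCC in all 29 genes of types H1, H2A, H2B and H3 that have the stem-loop. In the 12 H4 genes they were GGCCCT and AGGGCC in 10 and GGTCCT and AGGACC in 2.

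Members of a histone type are near-copies of each other, which limits how well reads can be assigned to 1 gene. The coding sequences of the 13 H4 genes, each 309 bases, were 85.44% to 100% identical in pairs, with a median of 93.85%. The 10 H3 genes, each 408 bases, had a median of 97.55%. *Hist1h4m* and *Hist1h4n* have identical coding sequences, as do *Hist1h2ao* and *Hist1h2ap* and also *Hist1h2bq* and *Hist1h2br*. The share of a gene's 50-base words found in no other annotated gene had a median of 48.1% over the 60 genes and ranged from 2.68% to 100%. Its median was 97.8% for H1, 32.6% for H2A, 53.1% for H2B, 42.8% for H3 and 60.5% for H4. *Hist2h2aa1*, *Hist2h2aa2*, *Hist2h2bb*, *Hist2h3b* and *Hist2h3c1* had a share of 0% and 0 counts in all 8 samples. *Hist1h2aa* and *Hist3h2ba* also had 0 counts, with unique shares of 76.25% and 77.88%, which allows at most 2.5e-06% of all counts for each. Values of genes with a low unique share are uncertain, since the authors' handling of reads that match several genes is not stated.

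**Figure D1:**
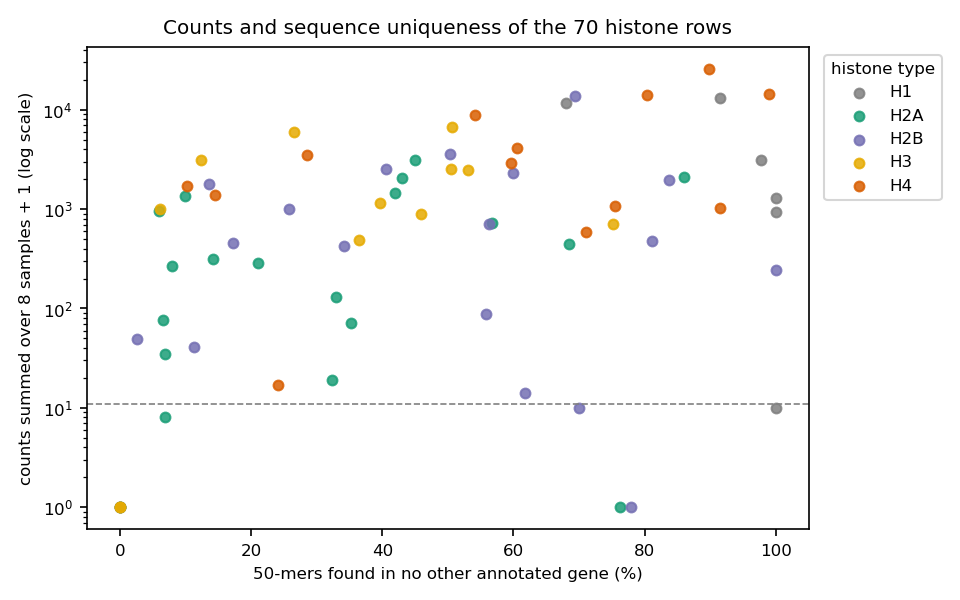
Share of each row's 50-base words found in no other annotated gene (x axis, percent) against its counts summed over the 8 samples plus 1 (y axis, log scale), one point for each of the 70 rows, coloured by histone type. The dashed line marks the minimum of 10 counts. The 5 rows without any unique word lie on one point at 0 counts.

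Total counts per sample ranged from 10992355 to 17456063, and 3 counts, taken as the smallest level that could be shown, correspond to 0.173 to 0.27 CPM (the count per 1e6 counts of the sample, with the total scaled by TMM factors). The histone genes held 0.1427% to 0.1537% of the counts of a sample. Their summed level was 1479 ± 59.2 CPM with IL-1β, compared to 1488 ± 46.2 CPM with vehicle (mean ± SD, n = 4 each here and below), a difference of -0.582% with overlapping groups. H4 genes made up the most of it, with 45.51% ± 0.983 of the histone CPM with IL-1β and 44.09% ± 0.315 with vehicle. Each IL-1β sample (44.76%, 44.89%, 46.91% and 45.46%) was above every vehicle sample (44.37%, 43.88%, 43.77% and 44.36%).

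The summed level of H2A was 105.8, 105.9, 108.8 and 105.2 CPM in the 4 IL-1β samples and 113, 125.8, 109.8 and 114.2 CPM in the 4 vehicle samples. The groups did not overlap, and the mean with IL-1β was lower by 8.06%. The separation rests on *Hist2h2ac*, at 22.95 CPM with IL-1β against 28.29 CPM with vehicle on average. This gene held 23.94 of the 108.8 CPM in IL-1β sample 3 and 27.17 of the 109.8 CPM in vehicle sample 3. Without it the order of these samples is reversed, so the groups would overlap. The summed level of H1 differed by -6.12% (245 ± 10.7 against 261 ± 9.45 CPM), that of H2B by -2.99% (241.7 ± 7.29 against 249.1 ± 9.33 CPM), that of H3 by 3.21% (212.4 ± 6.19 against 205.8 ± 11.3 CPM) and that of H4 by 2.66% (673.4 ± 41 against 655.9 ± 19.5 CPM), all with overlapping groups. Leaving out 1 sample at a time, the H4 difference ran from -0.0602% (without IL-1β sample 3) to 4.6%, and the H3 difference from 0.9% (without vehicle sample 1) to 5.35%. Without *Hist1h2bc*, the most abundant H2B gene, the H2B difference was -6.64%. The ratio of H4 to the sum of H2A and H2B was 1.934 ± 0.0815 with IL-1β and 1.798 ± 0.0267 with vehicle, again without overlap. The ratio of H4 to H3 was 3.168 ± 0.112 and 3.191 ± 0.107, and overlapped.

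**Figure D2:**
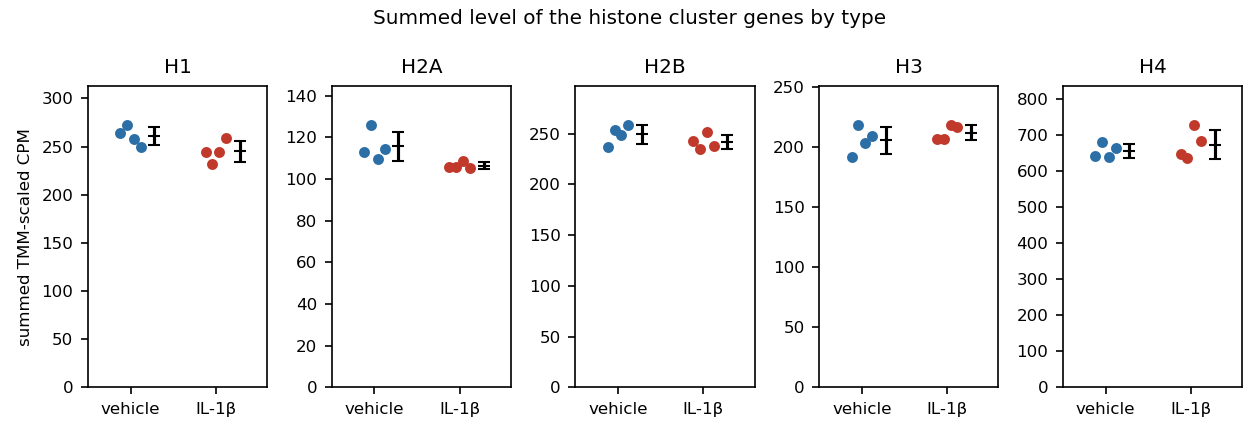
Summed TMM-scaled CPM of the genes of each histone type in the 8 samples (points) with the mean and SD of each group (black, n = 4), one panel per type, every y axis starting at 0. H2A is the type whose groups do not overlap, 105.2 to 108.8 CPM with IL-1β below 109.8 to 125.8 CPM with vehicle. Without *Hist2h2ac* they would overlap.

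Of the 60 genes, 51 passed the filter of a CPM above 1 in at least 4 samples (5 H1, 12 H2A, 12 H2B, 10 H3 and 12 H4). By edgeR's quasi-likelihood test with Benjamini-Hochberg adjustment over all genes, 18 of the 51 (35.3%) had an adjusted p under 0.05, where 40.2% of the 14404 genes tested did. Of these, 7 were higher and 11 lower with IL-1β, against 20.4% and 19.8% of all genes in the respective direction. At an unadjusted p under 0.05 there were 20 of the 51, where 46.6% of all genes passed, so the share of histone genes called was near that of genes in general. None changed by more than 2-fold, the size taken here to define differentially expressed genes (DEGs), where 5.21% of all genes did. The Log2FC ran from -0.65 to 0.33, with a median of -0.0522 and a median absolute value of 0.128, against -0.0012 and 0.157 over all genes. The 95% confidence interval lay within a 2-fold change for 50 of the 51 genes, the exception being *Hist1h2ad*. In 14 genes the groups did not overlap, 5 higher and 9 lower with IL-1β (27.5%, against 36.8% of all genes, 18.7% higher and 18.2% lower). DESeq2 called 13 of the same 18 genes and no others.

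The calls differed in direction between the types. Among the 12 H4 genes tested, 6 rose and 2 fell (66.7% called), with a median Log2FC of 0.15. Among the 39 genes of the other types 1 rose and 9 fell (25.6% called), with a median of -0.0796. Over all genes 20.4% rose and 19.8% fell, so the falls among the other types were near the general share. *Hist1h2ad*, among the 9, had passed the filter through the vehicle group alone, in which it is higher, and 8 fell without it. The medians of H1, H2A, H2B and H3 were -0.0619, -0.111, -0.0796 and 0.0236, and that of H3 was -0.0342 without vehicle sample 1. These counts describe genes that share sequence and, in part, reads, and the difference between types was not tested. The counts with 20 CPM or more on average were 4 higher and 2 lower of 7 H4 genes and 1 higher and 3 lower of 12 others. These are 85.7% and 33.3% called. Among all genes 48.4% were called at 20 to 50 CPM and 58% at 50 CPM or more. Of the 9 H4 genes tested with 50% or more unique words, 4 rose and 1 fell.

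**Figure D3:**
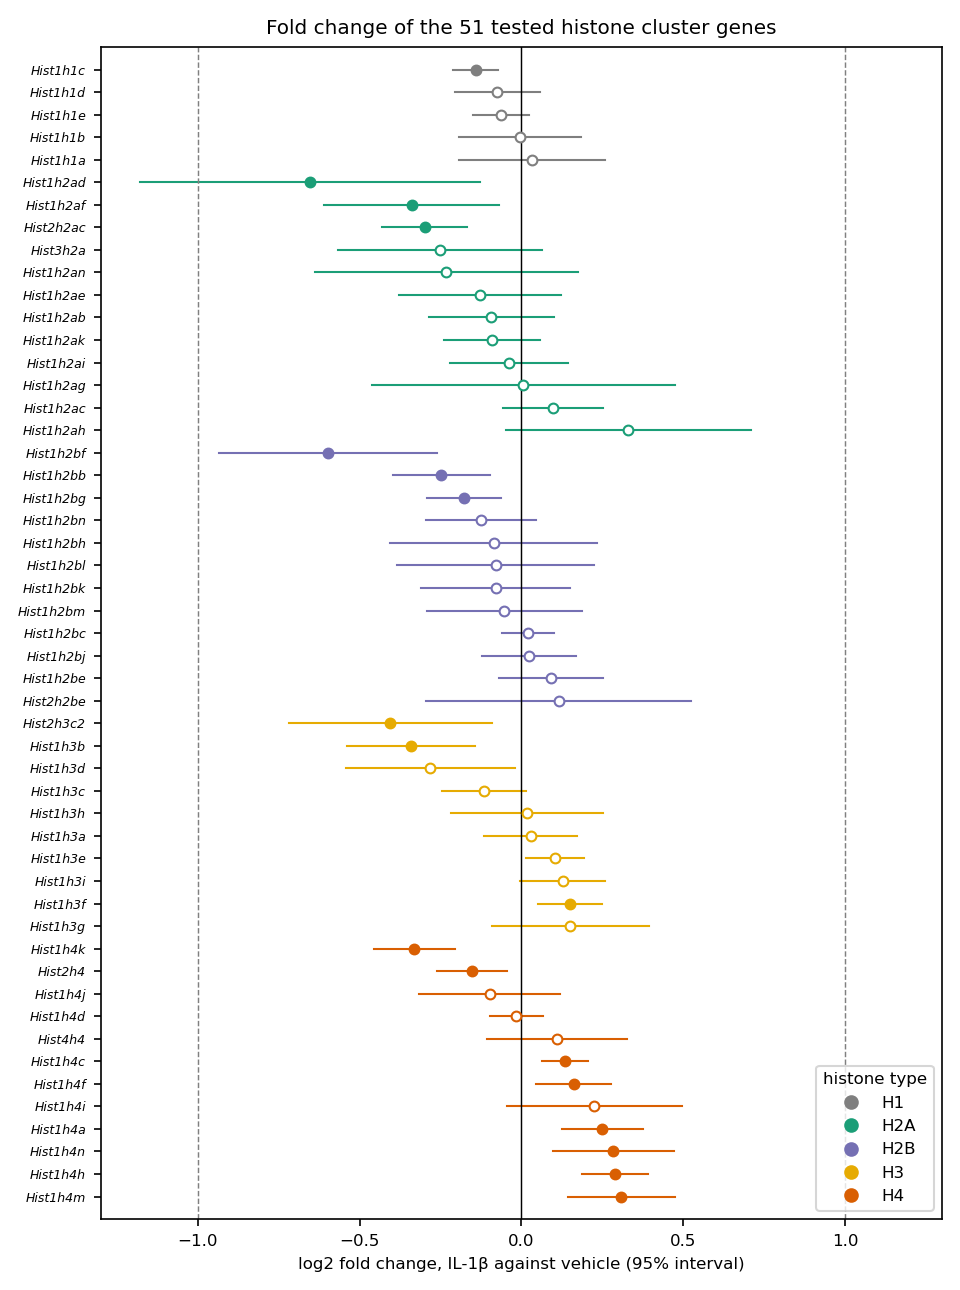
Log2 fold change of IL-1β against vehicle (x axis) with its 95% confidence interval for the 51 tested histone genes (y axis), coloured by type. Filled points have an adjusted p under 0.05 and dashed lines mark a 2-fold change. Of the filled H4 points, 6 lie right of 0 and 2 left of it. Of the filled points of other types, 9 lie left of 0, *Hist1h2ad* among them, and 1 right of it. No point lies past a dashed line.

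H4 was the type with the highest summed level as counted. Its median unique share of 60.5% was above those of H2A (32.6%), H2B (53.1%) and H3 (42.8%). Levels of different types may therefore not be comparable as expression. *Hist1h4d* was the most abundant H4 gene, with 197.5, 206.6, 233.8 and 214.6 CPM in the IL-1β samples and 205.8, 223.1, 214.3 and 220.1 CPM in the vehicle samples. The groups overlapped, and its Log2FC was -0.02 ± 0.04 (SE, adjusted p = 0.799 by edgeR), with a 95% interval of -0.0973 to 0.0661. *Hist1h4h* had 78.3, 73.42, 87.96 and 86.66 CPM with IL-1β, compared to 66.98, 70.37, 62.33 and 67.63 CPM with vehicle. Every IL-1β sample was above every vehicle sample, and *Hist1h4h* rose with a Log2FC of 0.29 ± 0.05 (adjusted p = 2.12e-05), a rise of 22.2%. *Hist1h4c* had 123.5, 117.8, 130 and 123.8 CPM with IL-1β, compared to 116.8, 113.1, 109 and 112.2 CPM with vehicle, a Log2FC of 0.13 ± 0.03 (adjusted p = 0.00246). *Hist1h4a* had 26.58, 25.46, 27.56 and 27.16 CPM against 24.06, 23.51, 21.61 and 20.37 CPM, a Log2FC of 0.25 ± 0.06 (adjusted p = 0.00145). Neither gene's groups overlapped.

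*Hist1h4m* and *Hist1h4n*, the pair with identical coding sequences, have unique shares of 10.2% and 14.44%, so their counts cannot be told apart with certainty. *Hist1h4m* had 16.85, 14.71, 15.98 and 16.67 CPM with IL-1β, compared to 12.11, 13.87, 13.69 and 12.09 CPM with vehicle (Log2FC 0.31 ± 0.08, adjusted p = 0.00277 by edgeR). *Hist1h4n* had 12.8, 12.4, 11.52 and 14.25 CPM against 9.98, 11.27, 10.27 and 10.19 CPM (Log2FC 0.28 ± 0.09, adjusted p = 0.0132). Both rose without overlap of the groups, and the *Hist1h4n* call was lost without IL-1β sample 4 (adjusted p = 0.0674). *Hist1h4f* was named after its values were seen. It had 35.05, 35.19, 38.67 and 36.31 CPM with IL-1β, compared to 35.19, 34.38, 30.24 and 29.97 CPM with vehicle, where vehicle sample 1 reached the lowest IL-1β samples (Log2FC 0.16 ± 0.06, adjusted p = 0.0232). Its adjusted p was 0.0573 with DESeq2, 0.104 without IL-1β sample 3, 0.0985 without vehicle sample 3 and 0.108 without vehicle sample 4.

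The 2 H4 genes that fell lie on different chromosomes. *Hist1h4k*, also named after its values were seen, had 26.67, 25.75, 24.83 and 27.09 CPM with IL-1β, compared to 30.58, 36.74, 30.31 and 33.06 CPM with vehicle. All IL-1β samples were lower, and the gene fell by 20.5% (Log2FC -0.33 ± 0.06, adjusted p = 5.9e-05 by edgeR), with a unique share of 28.52%. *Hist2h4* on chromosome 3, with a unique share of 98.99%, had 109.2, 102.2, 132.2 and 112.3 CPM with IL-1β, compared to 119.1, 132, 122.2 and 135.6 CPM with vehicle. Here IL-1β sample 3 lay among the vehicle samples, and the Log2FC was -0.15 ± 0.05 (adjusted p = 0.0208). The call on *Hist2h4* was lost with DESeq2 (adjusted p = 0.196), with a factor of unwanted variation (0.104) and without IL-1β sample 1 (0.0677), IL-1β sample 2 (0.134), vehicle sample 2 (0.0754) or vehicle sample 4 (0.0761). *Hist1h4i*, *Hist1h4j* and *Hist4h4*, each under 11 CPM, had a Log2FC of 0.23, -0.1 and 0.11, none with an adjusted p under 0.05.

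H1 histones bind linker DNA, and *Hist1h1c* and *Hist1h1e* were the most abundant of the 5 genes. *Hist1h1c* had 104.5, 101, 104.7 and 110.1 CPM with IL-1β, compared to 114.6, 117, 118.5 and 113.4 CPM with vehicle. All IL-1β samples were lower, and *Hist1h1c* fell by 9.33% (Log2FC -0.14 ± 0.03, adjusted p = 0.00129 by edgeR). *Hist1h1e* had 90.22 to 100.8 CPM with IL-1β, compared to 91.81 to 106.4 CPM with vehicle, with a Log2FC of -0.06 ± 0.04 (adjusted p = 0.268, but 0.049 without vehicle sample 4), and 496 of its bases are shared with *Hist1h2be* on the same strand. *Hist1h1d* (22.57 to 28.58 against 25.17 to 28.31 CPM) had a Log2FC of -0.07 ± 0.06 (adjusted p = 0.39). *Hist1h1a* and *Hist1h1b*, under 12 CPM in every sample, had a Log2FC of 0.03 and 0. The row of *Hist1h1t*, the H1 histone of testis, had 9 counts in all.

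H2A and H2B form the dimers that flank the tetramer of H3 and H4. Of the 12 H2A genes tested 3 fell and none rose (25% called, against 40.2% of all genes). Among the 11 with a CPM above 1 in all 8 samples, which leaves out *Hist1h2ad*, 2 fell. *Hist2h2ac*, the most abundant, had 22.35, 24.81, 23.94 and 20.71 CPM with IL-1β, compared to 26.13, 29.75, 27.17 and 30.1 CPM with vehicle. Every IL-1β sample was lower, and *Hist2h2ac* fell by 18.7% (Log2FC -0.3 ± 0.06, adjusted p = 0.000379 by edgeR). *Hist1h2ac* (17.45 to 18.89 against 15.19 to 19.12 CPM, Log2FC 0.1 ± 0.08, adjusted p = 0.331) and *Hist1h2ak* (16.31 to 17.38 against 15.9 to 19.01 CPM, Log2FC -0.09 ± 0.07, adjusted p = 0.353) overlapped between groups. *Hist1h2ah* had the highest Log2FC of all 51 genes, 0.33 ± 0.19, but at 2.091 to 2.792 against 1.712 to 2.311 CPM it overlapped and its adjusted p was 0.165.

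The other 2 H2A calls were at low levels. *Hist1h2ad* had 0.901, 0.938, 0.713 and 0.78 CPM with IL-1β, compared to 1.269, 1.387, 1.426 and 1.117 CPM with vehicle, all IL-1β samples lower, and its Log2FC of -0.65 ± 0.26 was the lowest of the 51 genes (adjusted p = 0.0433 by edgeR). *Hist1h2af*, with a unique share of 6%, had 5.947, 5.192, 8.612 and 7.943 CPM with IL-1β, compared to 8.596, 10.46, 8.201 and 8.149 CPM with vehicle, with overlap (Log2FC -0.34 ± 0.13, adjusted p = 0.0402). The *Hist1h2ad* call was lost with DESeq2 (adjusted p = 0.147), with the replicate number as a block (0.0666), with no filter (0.121), with a filter of 10 counts in all (0.0756) and without IL-1β sample 1 (0.054), 3 (0.124) or 4 (0.0855). The *Hist1h2af* call was lost with DESeq2 (0.0587), with a factor of unwanted variation (0.197) and without IL-1β sample 1 (0.116), IL-1β sample 2 (0.194) or vehicle sample 2 (0.179).

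Of the 12 H2B genes tested 3 fell and none rose (25% called, against 40.2% of all genes). *Hist1h2bc*, the most abundant by far, had 116, 112.2, 118.1 and 117.8 CPM with IL-1β, compared to 104.4, 117.5, 114.5 and 121.6 CPM with vehicle. The groups overlapped, with a Log2FC of 0.02 ± 0.04 (adjusted p = 0.728 by edgeR). *Hist1h2bg* had 25.77, 28.92, 30.05 and 26.52 CPM with IL-1β, compared to 31.96, 31.26, 31.02 and 32.2 CPM with vehicle. It fell by 11.6% without overlap (Log2FC -0.18 ± 0.05, adjusted p = 0.0106, or 0.0509 with a factor of unwanted variation). *Hist1h2bb*, named after its values were seen, had 19.19, 15.87, 18.83 and 16.03 CPM against 19.79, 22.01, 20.9 and 20.18 CPM, again without overlap (Log2FC -0.25 ± 0.07, adjusted p = 0.00739). *Hist1h2bf* had 1.982, 2.524, 2.91 and 3.404 CPM with IL-1β, compared to 4.615, 4.16, 4.35 and 3.483 CPM with vehicle, the largest fall of the H2B genes at 33.9% (Log2FC -0.6 ± 0.16, adjusted p = 0.00418). *Hist1h2bj* (20.55 to 22.36 against 18 to 22.87 CPM) had a Log2FC of 0.02 ± 0.07 (adjusted p = 0.827).

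**Figure D4:**
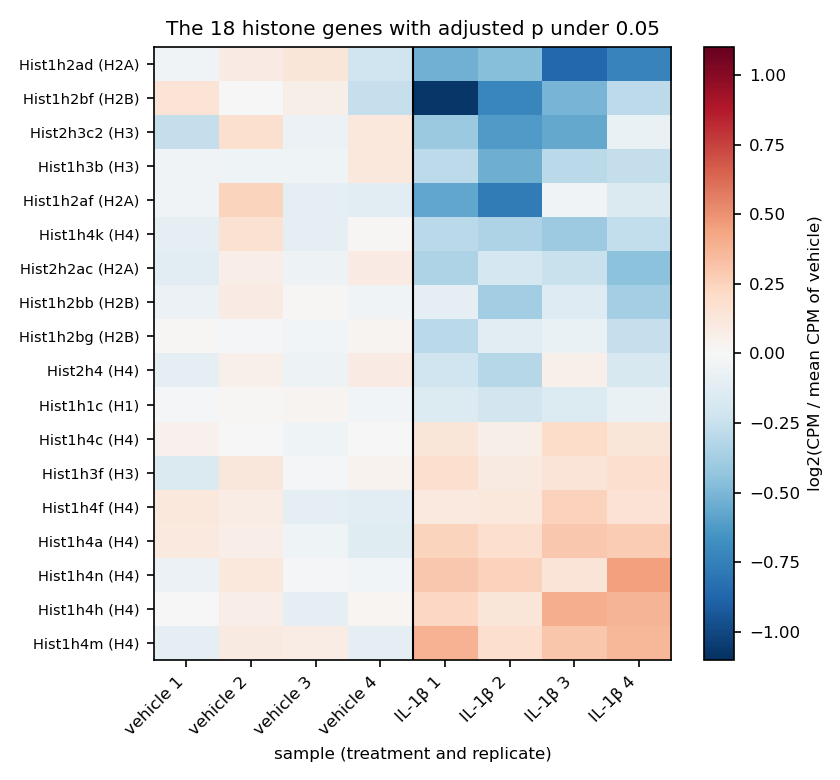
Level of the 18 histone genes with an adjusted p under 0.05 (y axis, type in brackets) in each sample (x axis), as log2 of CPM over the mean CPM of vehicle, from -1.07 (dark blue) to 0.45 (red). The 7 lowest lines are higher with IL-1β, 6 of them H4 genes, and the 11 lines above are lower.

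Many H2A and H2B genes are arranged back to back, with starts that face away from each other across a short promoter. There were 11 such pairs, with 175 to 301 bases between the annotated starts. In 8 pairs both genes were tested, the Log2FC had the same sign in 6, and 1 pair had both genes called, *Hist1h2ad* and *Hist1h2bf* (-0.65 and -0.6), whose starts are 184 bases apart. That pair rests on the call of *Hist1h2ad*, which passed the filter through the vehicle group alone and was lost in 7 of 11 alternatives. The partners of *Hist2h2ac* and *Hist1h2bg* were *Hist2h2be* (Log2FC 0.12 ± 0.2, adjusted p = 0.698 by edgeR) and *Hist1h2ae* (-0.13 ± 0.12, adjusted p = 0.443). Levels differed within pairs. *Hist1h2bc* had a mean of 115.3 CPM and its partner *Hist1h2ac* 17.41, while *Hist2h2ac* had 25.62 and its partner *Hist2h2be* 2.019. Per kb of annotated transcript these were 99.71 and 7.016, and 49.27 and 0.771. The scaled values depend on the annotated lengths, 1156 and 2482 bases and 520 and 2620 bases. *Hist1h2ac* has 2010 of its bases after the stem-loop, where the mRNA would end.

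H3 carries many of the modified lysines of chromatin. Of the 10 H3 genes tested, 1 rose and 2 fell (30% called, against 40.2% of all genes). *Hist1h3f* had 60.37, 56.83, 58.62 and 60.28 CPM with IL-1β, compared to 47.59, 57.89, 52.56 and 54.55 CPM with vehicle. Vehicle sample 2 lay within the IL-1β samples, and the Log2FC was 0.15 ± 0.05 (adjusted p = 0.0142 by edgeR, or 0.102 without vehicle sample 1). *Hist1h3e* (49.11 to 54.76 against 47.37 to 50.34 CPM) had a Log2FC of 0.1 ± 0.04 and just missed the threshold (adjusted p = 0.0567). Its adjusted p was 0.0436 without IL-1β sample 1, 0.0211 without IL-1β sample 2 and 0.0339 with a factor of unwanted variation. *Hist1h3i*, with a unique share of 12.43%, had 26.76 to 27.62 against 21.98 to 28.08 CPM and a Log2FC of 0.13 ± 0.06 (adjusted p = 0.117, or 0.0197 without vehicle sample 2).

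*Hist1h3b* had 8.74, 7.356, 8.672 and 8.865 CPM with IL-1β, compared to 10.38, 10.34, 10.34 and 11.57 CPM with vehicle. All IL-1β samples were lower, and *Hist1h3b* fell by 21.1% (Log2FC -0.34 ± 0.1, adjusted p = 0.00549 by edgeR). *Hist2h3c2* on chromosome 3 had 3.424, 2.957, 3.089 and 4.326 CPM with IL-1β, compared to 3.807, 5.142, 4.35 and 4.929 CPM with vehicle, with overlap through IL-1β sample 4 and vehicle sample 1 (Log2FC -0.41 ± 0.15, adjusted p = 0.0349). This call was lost with DESeq2 (adjusted p = 0.0845) and without IL-1β sample 1 (0.0573), 2 (0.108) or 3 (0.117), or vehicle sample 2 (0.121) or 4 (0.0898).

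Scaled by annotated length, the highest levels were those of *Hist1h4d* (188.5 CPM per kb, mean of 8 samples), *Hist1h4h* (157.9), *Hist1h4c* (144.2), *Hist1h2bc* (99.71) and *Hist1h4k* (94.16). Annotated lengths run past the stem-loop to differing extents, so this order is uncertain. With IL-1β and vehicle, *Hist1h4h* had 173.6 and 142.2 CPM per kb and *Hist1h4k* 83.6 and 104.7, so these H4 genes moved in opposite directions. *Hist1h4k* is annotated with 312 bases, and no stem-loop lies in that window.

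The 60 genes lie in 6 blocks of GRCm38. The larger parts of the *Hist1* cluster are chr13:21715763-22043676 with 23 of the genes and chr13:23531050-23934851 with 29. Of the 18 tested in the first, 2 rose (*Hist1h4m* and *Hist1h4n*) and 1 fell (*Hist1h4k*). Of the 27 tested in the second, 5 rose and 7 fell. The shares called were 16.7% and 44.4%, against 40.2% of all genes. The *Hist2* cluster, chr3:96219865-96270132, held 5 of the genes, of which 4 were tested and 3 fell (*Hist2h2ac*, *Hist2h3c2* and *Hist2h4*). That is 75%, but of only 4 genes. *Hist3h2a* on chromosome 11 and *Hist4h4* on chromosome 6 had a Log2FC of -0.25 and 0.11 and were not called. Exons of 19 genes overlap those of another annotated gene, in 17 of them on the opposite strand, and whether the counting used strand is not given in the sources used here. The 17 are all the H2A genes and *Hist1h4b*. H2A is also the type whose summed levels did not overlap between the groups, though they would without *Hist2h2ac*. The part of the exon overlaps in that result was not tested.

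Promoters were taken from RefSeq (GRCm38.p6), as 250 bases before to 50 bases after each start, for the 53 genes that matched. The letters ATTTGCAT, the octamer known from H2B promoters and bound by Pou2f1, were found on either strand in 6 of 14 H2A and 5 of 14 H2B promoters and in none of the H1, H3 and H4 promoters, against 1.97% of the promoters of all 27025 genes. The letters CCAAT, bound by the NF-Y complex, were in all 5 H1, 14 H2A, 14 H2B and 8 H3 promoters and in 3 of 12 H4 promoters (25%), against 41.06% of all. The letters TATAAA were in 60.4% of the 53 promoters, 8 of 12 for H4, against 15.67% of all. The octamer is shown with its flanks in 3 H2B promoters, on the plus strand with the octamer in capitals, as examples chosen after the values were seen: *Hist1h2bg* and *Hist1h2bb* fell, and the site of *Hist1h2bk* also lies in the promoter of *Hist1h2ah*, neither of which was called. Of the 11 genes with the octamer 10 were tested, 3 fell (*Hist2h2ac* being the third) and none rose, where 19.8% and 20.4% of all genes did. Their Log2FC ran from -0.3 to 0.33, and *Hist1h2bf*, the H2B gene with the largest fall, has no match.
*Hist1h2bg*, chr13:23571330-23571359: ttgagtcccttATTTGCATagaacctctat
*Hist1h2bb*, chr13:23746633-23746662: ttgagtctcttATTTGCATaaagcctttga
*Hist1h2bk*, chr13:22035780-22035809: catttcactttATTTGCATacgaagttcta
A match is a description of letters and not a site.

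Factors that act on histone genes and their mRNAs were read from a list of 27 genes, 26 of which were tested. Of these, 3 rose and 6 fell (34.6% called, against 40.2% of all genes), and the median Log2FC was -0.014. *Eri1*, the exonuclease that trims the end of the stem-loop, had 25.86, 25.75, 24.83 and 27.87 CPM with IL-1β, compared to 18.92, 21.32, 22.68 and 18.6 CPM with vehicle. All IL-1β samples were higher (Log2FC 0.36 ± 0.07, adjusted p = 6.87e-05 by edgeR). *Slbp*, which binds the stem-loop, had 18.65, 16.95, 17.76 and 14.33 against 15.11, 15.6, 17.76 and 14.39 CPM, with overlap (Log2FC 0.11 ± 0.08, adjusted p = 0.347). *Upf1*, a helicase required for histone mRNA decay, had 140.4 to 145.9 against 167.4 to 173.2 CPM, and fell without overlap (Log2FC -0.24 ± 0.03, adjusted p = 4.36e-08).

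The other 2 factors that rose were *Sympk*, a scaffold of the cleavage complex, and *Srrt* (Log2FC 0.15 and 0.12). The other 5 that fell were the Sm proteins *Snrpd3*, *Snrpe* and *Snrpf* (-0.13, -0.22 and -0.14) and the NF-Y subunits *Nfya* and *Nfyb* (-0.18 and -0.34). The other transcription factors named were not called. *Npat* had a Log2FC of -0.12 (adjusted p = 0.0716 by edgeR, or 0.0292 without IL-1β sample 3), *Casp8ap2* of 0.03, *Hinfp*, known to act on H4 genes, of -0.12 and *Pou2f1* of 0. The U7 proteins *Lsm10* and *Lsm11* had a Log2FC of 0.21 (adjusted p = 0.0896, or 0.0291 without IL-1β sample 3 and 0.0242 without vehicle sample 3) and 0.04. *Zfp473*, at 0.973 against 0.503 CPM on average, did not pass the filter.

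Histone variants with names outside *Hist1h* to *Hist4h* numbered 12. Of these, 1 rose and 3 fell (33.3% called, against 40.2% of all genes), with a median Log2FC of -0.0566. *H2afj* rose (87.85, 84.88, 96.46 and 88.43 against 71.94, 73.26, 73.24 and 74.46 CPM, Log2FC 0.29 ± 0.04, adjusted p = 7.68e-07 by edgeR), without overlap. *H1f0*, the linker histone of resting cells, fell without overlap, from 99.23, 109.4, 103.1 and 107.1 CPM with vehicle to 84.07, 90.87, 93.31 and 88.29 CPM (Log2FC -0.23 ± 0.04, adjusted p = 1.89e-05). *H2afy2*, a macroH2A, also fell (-0.3), as did *H3f3b* (-0.1, adjusted p = 0.0162), whose call was lost without IL-1β sample 3 (0.0623) or vehicle sample 1 (0.0668). *H3f3a*, *H2afz*, *H2afx* and *Cenpa*, the centromeric H3, had a Log2FC of -0.06, -0.06, -0.02 and -0.26, with an adjusted p of 0.268, 0.291, 0.862 and 0.302.

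Of 23 histone chaperones and their partners, 1 rose (*Cabin1*, Log2FC 0.28) and 6 fell (30.4% called, against 40.2% of all genes), with a median of -0.0173. *Nasp*, a chaperone of H1 and of H3 with H4, fell (33.07, 31.08, 28.93 and 31.06 against 39.98, 36.92, 33.87 and 35.82 CPM, Log2FC -0.25 ± 0.06, adjusted p = 0.00055 by edgeR) without overlap. The other 5 were *Asf1a* (-0.32), *Asf1b* (-0.41), *Rbbp7* (-0.11), *Dek* (-0.19) and *Mcm2* (-0.24). The *Asf1b* call, at 2.902 against 3.833 CPM with an adjusted p of 0.0297, was lost with DESeq2 (0.0984), with a factor of unwanted variation (0.0629), with no filter (0.0716) and in 6 of the 8 fits that left out 1 sample, each of them but those without IL-1β sample 2 or vehicle sample 3. *Chaf1a* and *Chaf1b*, of the complex that deposits H3 and H4 behind the replication fork, had a Log2FC of -0.04 and 0.25 (adjusted p = 0.792 and 0.341).

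Of 51 DNA replication genes 6 rose and 9 fell (29.4% called, against 40.2% of all genes), with a median Log2FC of -0.0267. The helicase subunits *Mcm2*, *Mcm4*, *Mcm5* and *Mcm6* fell (Log2FC -0.24, -0.14, -0.15 and -0.2), while *Mcm3* and *Mcm7* had 0 and -0.02. The *Mcm4* and *Mcm5* calls were lost with DESeq2 (adjusted p = 0.0981 and 0.107), with a factor of unwanted variation (0.0863 and 0.0886) and with no filter (0.0578 and 0.0614), and that on *Mcm5* with a filter of 10 counts in all (0.055). That on *Mcm4* was also lost without IL-1β sample 1 (0.0559), 2 (0.0629) or 4 (0.11) or vehicle sample 2 (0.0908) or 4 (0.0564), and that on *Mcm5* without IL-1β sample 1 (0.0943) or 2 (0.142) or vehicle sample 1 (0.11) or 3 (0.104). *Orc6*, *E2f7*, *Prim1*, *Rfc4* and *Pola1* fell by 0.58, 0.57, 0.41, 0.38 and 0.34 on the log2 scale. *Cdc7*, *Dbf4*, *Cdt1*, *Pold1*, *Gins4* and *Rpa1* rose by 0.45, 0.38, 0.21, 0.21, 0.18 and 0.14. *Pcna*, *Ccne2*, *Ccna2*, *Rrm2*, *Tk1* and *E2f1* were not called (adjusted p = 0.787, 0.668, 0.241, 0.558, 0.646 and 0.435), nor was *Ccne1* (0.0667, or 0.0241 without IL-1β sample 1).

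Of 22 genes of G2 and mitosis none rose and 5 fell (22.7%, against 19.8% of all genes that fell), with a median Log2FC of -0.18. *Mki67*, a marker of cycling cells, had 27.12, 28.2, 28.93 and 29.22 CPM with IL-1β, compared to 34.67, 37.21, 35.3 and 34.7 CPM with vehicle, and fell by 0.32 on the log2 scale (SE 0.05, adjusted p = 6.4e-06 by edgeR) without overlap. *Ube2c*, *Kif20a* and *Tpx2* fell by 0.36, 0.34 and 0.33, and *Ttk*, at 0.876 against 1.776 CPM on average, by 1.02. *Ttk*, among the 5, passed the filter through the vehicle group, in which it is higher. With IL-1β it was above 1 CPM in sample 2 alone. *Top2a* and *Ccnb1* had a Log2FC of -0.11 and -0.04 (adjusted p = 0.221 and 0.896). In bulk samples fewer cells in a phase of the cycle and less RNA per cell cannot be told apart.

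**Figure D5:**
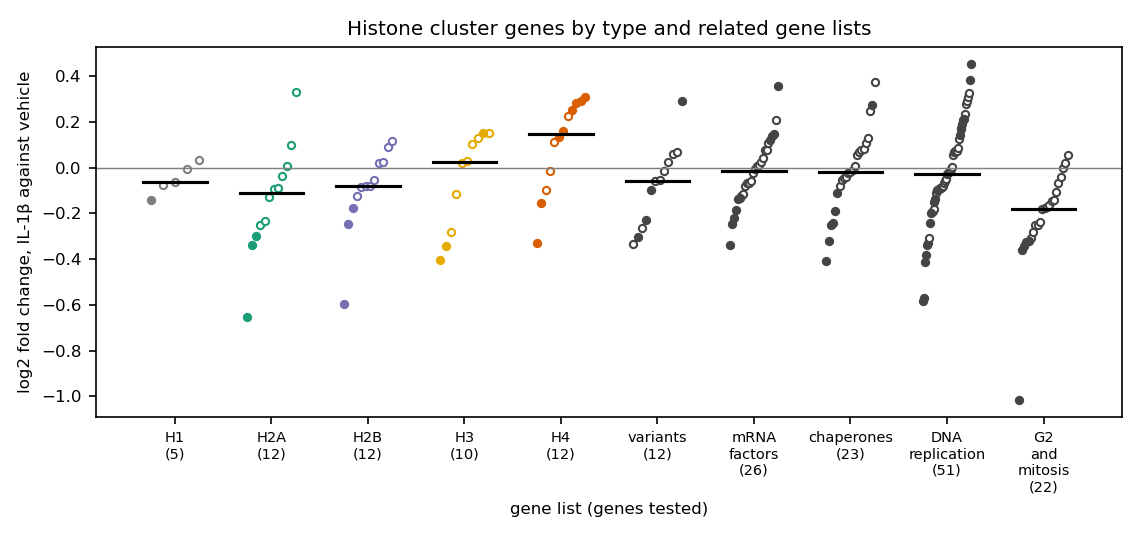
Log2 fold change of IL-1β against vehicle (y axis) for the tested histone genes by type and for 5 related lists (x axis, number of genes tested in brackets). Filled points have an adjusted p under 0.05 and black bars mark medians, of which H4 is the highest at 0.15 and the list of G2 and mitosis the lowest at -0.18.

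Since most histone mRNAs lack a poly(A) tail, RNAs without one were read as a check of what the libraries hold. *Rn7sk*, a small nuclear RNA that is not polyadenylated, had 8782 ± 404 CPM with IL-1β, compared to 9149 ± 586 CPM with vehicle (adjusted p = 0.161 by edgeR), so this RNA was in the libraries. It makes up most of the list, whose other members ranged from *Scarna2* (635.9 and 588.7 CPM) to 6 RNAs with 0 counts in all samples, *Rmrp* among them, and *Rpph1* had 4 counts. Of the 21 RNAs 8 were tested, and *Scarna2* and *Scarna13* rose (Log2FC 0.11 and 0.21). The summed level of the list, 9127 to 10040 CPM with IL-1β, compared to 8991 to 10340 CPM with vehicle, overlapped. The check was thus mixed, and the library kit is not given in the sources used here. The histone levels and fold changes may therefore cover only the part of the histone mRNAs that the libraries kept.

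All 12 chondrocyte markers were detected and lower with IL-1β, at a summed 4428 to 4849 CPM against 16880 to 17530 CPM. Of 8 leukocyte markers 2 were tested. On average *Cd68* was higher with IL-1β (14.99 against 9.481 CPM) and *Lyz2* lower (1.244 against 1.864 CPM). The sum, most of it *Cd68*, was 16.04 to 19.54 against 11.9 to 13.05 CPM. *Ptprc* was under 0.2 CPM on average in both groups. The 6 endothelial markers summed to 0.649 to 1.25 against 0.751 to 1.07 CPM. The 5 osteoblast markers summed to 29.83 to 36.94 against 94.31 to 106.8 CPM, and the 5 erythroid markers to 1.425 to 1.803 against 0.92 to 1.673 CPM. The part of the falls in chondrocyte and osteoblast markers in the histone results was not tested.

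The other 9 genes did not pass the filter, each under 1 CPM on average in both groups. They were *Hist1h2al*, annotated as a pseudogene, *Hist1h2ao*, *Hist1h2ap*, *Hist2h2ab*, *Hist1h2bp*, *Hist1h2bq*, *Hist1h2br*, *Hist1h4b* and *Hist1h2ba*, the H2B of testis, with 13 counts in all. *Hist1h2br* had 7, 5, 11 and 9 counts with IL-1β and 3, 2, 2 and 1 with vehicle, so its groups did not overlap. Fitted without the filter, it had a Log2FC of 2.11 ± 0.57 (adjusted p = 0.0016 by edgeR). *Hist1h2bq*, whose coding sequence is identical, had 6, 5, 8 and 13 counts against 2, 2, 2 and 10 (Log2FC 1.16 ± 0.48, adjusted p = 0.084). Their unique shares are 11.3% and 2.68%, so the counts of these genes cannot be told apart with certainty. The genes just inside the minimum of 10 counts were *Hist1h2ba* (13) and *Hist1h4b* (16), and those just outside *Hist1h1t* and *Hist3h2bb-ps* (9 each).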

How the data were processed

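RNA of the 8 samples was sequenced on an Illumina instrument. Reads had been trimmed (cutadapt), aligned to mm10 (STAR) and assigned to genes (featureCounts). The counts deposited by the authors are whole reads per gene symbol without scaling, and a column of gene lengths in bases stands beside them. The sources used here do not tell if RUVseq, which the methods mention, was applied before deposition, and the library kit, strand and treatment of reads that match several genes are not given either. The last of these limits single histone genes, as described with the results. Without the kit, it is not known whether RNA with a poly(A) tail was selected, which limits the levels of all histone genes.

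Groups followed the treatment labels. With TMM factors, IL-1β was compared to vehicle in edgeR 4.0.16 (R 4.3.3, quasi-likelihood F-test, treatment as the only term). Tested were 14404 genes, those with a CPM above 1 in 4 or more samples, with Benjamini-Hochberg adjustment. The threshold was an adjusted p of 0.05, and a Log2FC beyond 1 for a DEG. The ± values beside a Log2FC are standard errors. The total counts of 10992355 to 17456063 set the precision, and limits from counts cover counting error only. Positions, overlaps and stem-loops came from GENCODE vM21, whose exon lengths equalled the listed lengths for all 60 genes. A 50-base word counted as unique if found in no other annotated gene, on either strand. Figures were drawn with matplotlib 3.10.9.

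The histone genes and the other lists were chosen with earlier results of these data known. Genes were named by a rule: the 3 most abundant of each type, the 5 highest and 5 lowest by Log2FC, DEGs, and listed genes of histone regulation and the cell cycle. Other genes called, and list genes given by their calls, were named after their values were seen. In simulated data with 14190 tested genes, edgeR recovered 78% of 50 genes changed by a Log2FC of 0.25 and 100% of 50 changed by 0.5, with 8 false calls. Only genes above 5 CPM on average were changed, so these rates do not cover genes below that level. Far fewer genes were changed there than were called in the data. The alternatives were DESeq2 1.42.0, DESeq2's size factors, the total library size, other filters, the replicate number as a block, 1 factor of unwanted variation (RUVs), each sample left out in turn and, added after seeing the data, only genes with 50% or more unique 50-base words or without exon overlap. The miRNA-Seq and other experiments of the study were not analysed here.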

Additional observations from a re-analysis of the deposited data

Results flagged for a closer look

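Of 140 groups of 4 samples, 5 held a sample whose gap to the others exceeded Dixon's 95% critical value, where chance gives about 1 in 20, or 7. Of these, 2 were groups of *Hist1h3b*: IL-1β sample 2 at 7.36 CPM against 8.67 to 8.86 CPM in the others, and vehicle sample 4 at 11.6 CPM against 10.3 to 10.4 CPM. Both lie away from the other group, and the call on *Hist1h3b* was kept when either was left out. *Pou2f1* was at 29.4 CPM in IL-1β sample 4 against 33 to 33.5 CPM. *Mcm6* was at 64.1 CPM in vehicle sample 4 against 60.8 to 61.2 CPM. *Ccne2* was at 7.15 CPM in vehicle sample 1 against 6.35 to 6.37 CPM.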

How the results depend on the processing

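Of 283 values of the 18 called genes under the alternatives, 252 stayed past the threshold and 31 did not, and none changed sign. *Hist1h1c*, *Hist1h2bb*, *Hist1h2bf*, *Hist1h3b*, *Hist1h4a*, *Hist1h4c*, *Hist1h4h*, *Hist1h4k*, *Hist1h4m* and *Hist2h2ac* kept their call in all 16 alternative fits. Of these genes, *Hist1h2bf*, *Hist1h3b*, *Hist1h4k*, *Hist1h4m* and *Hist2h2ac* have under 50% unique words, and *Hist2h2ac* also overlaps another gene. The alternatives restricted to unique words or to genes without overlap leave them out, so the fits do not test their read assignment. DESeq2 called 7 genes lower, of them 1 H4 gene, and a factor of unwanted variation left 1 H4 gene lower and gave medians of -0.00775 for H2B and -0.0142 for the histone variants. With no filter, or a filter of 10 counts in all, 1 gene, *Hist1h2br*, passed a 2-fold change. With 50% or more unique 50-base words, 4 genes were lower, of them 1 H4 gene. Without genes that overlap another, the median was -0.00418. Without the most abundant gene of the type, the summed CPM of H2B differed by -6.64%. The cause of these shifts was not tested. Leaving out each sample in turn, the genes lower numbered 7 to 11 (7 without IL-1β sample 1 or vehicle sample 2) and the H4 genes lower 1 to 2, and the H2B median was -0.128 to -0.0174. In the other lists, histone variants higher numbered 1 to 2, chaperones higher 1 to 2 with a median of -0.0257 to 0.0141, and RNAs without poly(A) tail 1 to 2 higher and 0 to 1 lower. Same-numbered samples deviated with a correlation of -0.0689 to 0.0353, so no shared deviation was seen. This cannot show whether same-numbered samples came from the same animals or cultures. With the replicate number as a block 17 of the 18 genes were called, all but *Hist1h2ad* (adjusted p = 0.0666 by edgeR), and 5643 genes in all against 5796. Depth limits the genes under about 5 CPM.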
